A study of Mus musculus with 12 samples.

Results

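The activator protein 1 (AP-1) transcription factors were followed in bone marrow-derived macrophages (BMDMs). The family was taken by gene symbol as *Fos*, *Fosb*, *Fosl1* and *Fosl2* of the Fos subfamily, *Jun*, *Junb* and *Jund* of the Jun subfamily, and *Atf3*, *Batf* and *Batf3* of the ATF and BATF subfamilies. All 10 members were found among the 48526 genes of the table. Of the 10, 9 had at least 10 counts in at least 3 libraries and were tested, while *Fosl1* did not.

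RNA was sequenced from BMDMs of 3 female C57Bl/6J mice, grown from whole marrow with macrophage colony-stimulating factor and used on day 7. Each marrow gave an untreated culture and cultures with 100 ng/mL Wnt3a, 100 pg/mL IL-4, or Wnt3a with IL-4 for 16 hr, so each of the 4 groups held 3 samples. The labels give no age for the mice, and no allele was altered. The comparisons ask which AP-1 transcripts changed under IL-4, a cytokine that drives alternative macrophage activation, and under Wnt3a, a secreted ligand that activates β-catenin.

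The deposited Wnt3a and Wnt3a+IL-4 columns of a mouse share reads. In each mouse the Wnt3a count of every gene lay between the Wnt3a+IL-4 count and its double, with 0 of 48526 genes outside, whereas 6681 to 8625 genes lay outside for columns of different mice. Each such pair was therefore split into a difference, which is what the Wnt3a column holds beyond the Wnt3a+IL-4 column, and a remainder, which is what the Wnt3a+IL-4 column holds beyond that difference. Both come from cells that received Wnt3a, and the labels do not say which of them also received IL-4. The 12 libraries so defined held 13342492 to 17453377 counts. Summed macrophage markers were at 43979 to 68614 CPM (normalised counts, scaled to a common library size) in these libraries. Most of this sum was *Lyz2*, with group means of 37888 to 52985 CPM, and *Csf1r* came next with 4681 to 5609 CPM. Of other cell types, 10 neutrophil markers summed to 52.1 to 72.3 CPM in untreated cells, 83.4 to 93.0 with IL-4, 94.2 to 136 in the difference and 67.4 to 89.7 in the remainder. The higher sums in the difference were mostly *Mmp8*, a collagenase, with 1088 to 1843 counts against 248 to 514 in untreated cells, whereas *S100a9* had 196 to 278 against 261 to 362. Over the 12 libraries, 8 stromal markers summed to 10.5 to 34.1 CPM, 6 mast cell or basophil markers to 1.68 to 4.95 CPM (mainly *Kit*, with *Fcer1a* and *Ms4a2* at 0 counts) and 7 lymphocyte markers to at most 0.433 CPM. The part of such cells in the results was not tested. In RNA from whole cultures, a change in the number of cells that express a gene and a change in RNA per cell cannot be told apart.

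AP-1 is a dimer of basic leucine zipper (bZIP) proteins. Jun proteins pair with each other or with Fos proteins, whereas Fos proteins need a partner of another subfamily, and the pair binds the TPA response element (TRE) or the related cyclic AMP response element (CRE). *Fos*, *Fosb*, *Jun* and *Junb* are immediate early genes that respond to MAP kinase signaling, ATF3 is a stress-induced factor that restrains inflammatory genes in macrophages, and BATF and BATF3 lack a transactivation domain and bind with Jun proteins and with IRF4 or IRF8.

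The promoters of *Atf3* and *Batf3*, the members that separated the difference from the remainder, and of *Fos* and *Jun*, which were lower in both, are shown as 250 bases before the RefSeq start (GRCm38.p6, 5′ to 3′ on the gene's strand). Capitals mark matches to the motifs named after the sequences.
*Atf3*, chr1:191183334-191183583, minus strand: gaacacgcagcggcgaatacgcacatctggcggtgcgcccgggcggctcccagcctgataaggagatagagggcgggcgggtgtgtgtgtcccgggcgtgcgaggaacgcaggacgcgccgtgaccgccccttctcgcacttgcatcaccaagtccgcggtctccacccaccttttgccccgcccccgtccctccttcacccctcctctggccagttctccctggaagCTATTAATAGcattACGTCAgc
*Batf3*, chr1:191098164-191098413, plus strand: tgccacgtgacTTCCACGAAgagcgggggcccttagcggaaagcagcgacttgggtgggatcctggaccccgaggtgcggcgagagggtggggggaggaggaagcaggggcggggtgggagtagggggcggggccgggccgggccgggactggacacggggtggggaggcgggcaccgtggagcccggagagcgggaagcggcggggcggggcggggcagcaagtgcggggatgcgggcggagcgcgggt
*Fos*, chr12:85473640-85473889, plus strand: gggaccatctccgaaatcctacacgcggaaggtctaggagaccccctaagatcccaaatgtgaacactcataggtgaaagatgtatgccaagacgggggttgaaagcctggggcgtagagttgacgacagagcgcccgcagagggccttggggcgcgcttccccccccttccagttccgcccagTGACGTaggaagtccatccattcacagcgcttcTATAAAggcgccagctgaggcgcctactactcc
*Jun*, chr4:95052223-95052472, minus strand: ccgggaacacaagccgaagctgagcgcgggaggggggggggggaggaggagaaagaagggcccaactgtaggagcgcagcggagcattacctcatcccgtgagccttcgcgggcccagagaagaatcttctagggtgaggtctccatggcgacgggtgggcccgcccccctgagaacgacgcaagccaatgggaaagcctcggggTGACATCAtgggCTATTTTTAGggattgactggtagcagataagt

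Promoter entries were found for 9 of the 10 members, all but *Fosl1*, and each motif was searched on both strands. The *Jund* window ends 1.211 kb before the GENCODE gene start and the *Junb* window 31 bases before it, and neither window held a match to any motif searched. The CRE core TGACGT lay at -66 to -61 from the start in *Fos* and, as ACGTCA on the printed strand, at -8 to -3 in *Atf3*. The *Batf* window, not printed, held it at -98 to -93, so 3 of the 9 members had this core, against 6.47% of 32851 promoter windows of the same length. The full CRE (TGACGTCA, 1.55% of windows) and the TRE (TGANTCA, 6.75%) had 0 matches among the 9. *Jun* held the CRE-like TGACATCA at -45 to -38 (1 of 9 members, 2.93% of windows) and a MEF2 motif at -33 to -24, and *Atf3* held a MEF2 motif at -22 to -13 (2 of 9 members, 2.92% of windows). *Fos* held a TATA box (TATAAA) at -33 to -28, found in 12.4% of windows. *Batf3* held the STAT-type palindrome TTCNNNGAA at -239 to -231, which 7.02% of windows hold, and the STAT-type palindrome with a spacer of 4 bases (5.85%) had 0 matches among the 9. The TCF/LEF motif CTTTGAT (3.21%) and the CArG box (1.47%) also had 0 matches within these windows. Bases further upstream were not searched, so a count of 0 does not mean that a gene lacks the motif there. TGACGT is part of the full CRE, and TGACGT, TGACATCA and the MEF2 motif were added to the search after the windows were read. The *Atf3* and *Batf3* windows lie inside the boundaries of their GENCODE genes, and those of *Fos* and *Jun* end at the gene start.

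Levels are first compared between members per kilobase of exon. Exon lengths were those of GENCODE M21, whereas the study's methods name UCSC genes for counting, and the effect of this on the levels per kb was not tested. In untreated BMDMs *Atf3* was the most abundant AP-1 transcript, with 179 ± 16.3 CPM per kb (SD, n = 3), followed by *Junb* at 68.5 ± 8.04, *Jun* at 51.4 ± 3.89, *Fos* at 41.2 ± 0.864 and *Jund* at 28.9 ± 1.72. *Batf* stood at 8.39 ± 0.621 CPM per kb, *Fosl2* at 5.88 ± 0.306 and *Batf3* at 1.00 ± 0.238. *Fosb* (0.242 ± 0.163) and *Fosl1* (0.226 ± 0.0458) were the lowest, and they are the only neighbours in this order whose ranges over the 3 mice overlapped. *Atf3*, *Junb* and *Jun* held the first 3 places in every group. *Jund* and *Fos* overlapped in range in the IL-4, difference and remainder libraries, as did *Jun* and *Jund* in the remainder.

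Per kb, the 10 members summed to 385 ± 29.2 CPM in untreated cells, 478 ± 24.7 with IL-4, 266 ± 17.0 in the difference and 346 ± 30.5 in the remainder (SD, n = 3 each). *Atf3* made up 46.5 ± 0.688% of this sum in untreated cells, 54.1 ± 2.12% with IL-4, 34.9 ± 1.03% in the difference and 46.2 ± 1.64% in the remainder. The Jun subfamily held 38.6 ± 0.484% in untreated cells and 47.7 ± 0.449% in the difference, and the Fos subfamily 12.4 ± 1.19% and 12.5 ± 0.312%. In CPM per kb the mean of both was lower in the difference. The Jun subfamily stood at 149 ± 13.2 and 127 ± 8.71, and the Fos subfamily at 47.5 ± 1.25 and 33.3 ± 2.81. In the remainder *Atf3* was at 160 CPM per kb, *Fos* at 25.6 and *Jun* at 35.3, each below its mean in untreated cells.

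**Figure D1:**
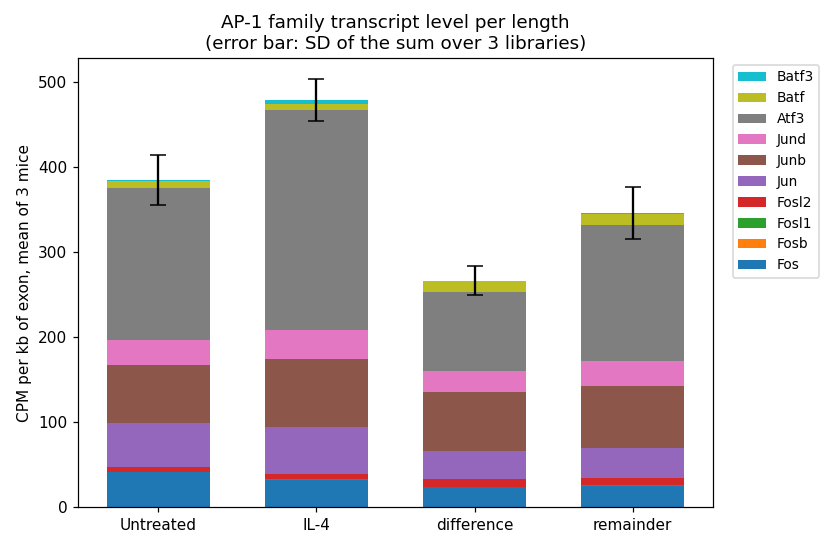
Stacked bars of the mean level per kb of exon (CPM per kb, n = 3 mice) of the 10 AP-1 members in each group, with the SD of the sum as error bar. *Atf3* is the tallest segment in every group and is smallest in the difference (93.0 CPM per kb) and largest with IL-4 (259 CPM per kb).

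IL-4 alone raised 2 of the 9 tested members and lowered 0, where 3.4% of the 12421 tested genes were called, 2.31% as higher and 1.09% as lower (by the quasi-likelihood test of edgeR, Benjamini-Hochberg adjusted p under 0.05, as for every call in the text). Libraries of both groups stood apart for 5 of the 9, against 19.8% of all tested genes. The median log2 fold change was 0.00 over all tested genes.

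*Atf3* (chr1:191170296-191218039, minus strand, mm10) was at 359, 426 and 373 CPM in the untreated libraries of mice 1, 2 and 3. It was at 597, 575 and 501 CPM with IL-4, at 189, 215 and 197 CPM in the difference, and at 358, 314 and 360 CPM in the remainder. Every IL-4 library was above every untreated library, every difference library was below them, and the remainder overlapped the untreated range. With IL-4 the transcript rose 1.45-fold (log2 0.53 ± 0.09 SE, adjusted p = 0.0045, edgeR). It fell by 0.95 ± 0.10 on the log2 scale in the difference, which was 1.93-fold lower than untreated (adjusted p = 6e-06, edgeR), and in the remainder its log2 difference from untreated was -0.17 ± 0.09 (adjusted p = 0.22, edgeR). The rise with IL-4 had the same direction in 3 of 3 mice, and it was not called without mouse 1 (log2 0.44, adjusted p = 0.066, edgeR) or without mouse 3 (log2 0.57, adjusted p = 0.14, edgeR).

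*Batf3* (chr1:191097847-191108945, plus strand), which conventional dendritic cells of the cross-presenting type need to develop, lies 61.4 kb from *Atf3*. It was at 1.24, 1.99 and 1.57 CPM in untreated cells of mice 1, 2 and 3, and at 6.77, 7.35 and 6.42 CPM with IL-4. The difference held 0.973, 0.855 and 1.45 CPM and the remainder 4.72, 2.58 and 3.09 CPM. The IL-4 libraries were highest, the remainder libraries came next and stood above all untreated and difference libraries, and untreated and difference libraries overlapped. These levels rest on 23 to 31 counts per library in untreated cells, 89 to 115 with IL-4, 14 to 20 in the difference and 42 to 76 in the remainder. *Batf3* rose 4.30-fold with IL-4 (log2 2.10 ± 0.26, adjusted p = 0.00024, edgeR) and 2.18-fold in the remainder (log2 1.12 ± 0.27, adjusted p = 0.0064, edgeR). In the difference the log2 value against untreated was -0.55 ± 0.31 (adjusted p = 0.22, edgeR). The rise in the remainder was not called without mouse 1 (log2 0.67, adjusted p = 0.14, edgeR) or mouse 3 (log2 1.20, adjusted p = 0.070, edgeR).

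Of 9 markers of conventional dendritic cells, 8 had more than 3 counts in some library. Their summed level was 1.94 to 3.06 CPM in untreated cells, 2.88 to 3.20 CPM with IL-4, 3.34 to 8.36 CPM in the difference and 8.87 to 21.6 CPM in the remainder. Most of the higher sums was *Ccr7*, a chemokine receptor also induced in activated macrophages, with 110 to 319 counts per library in the remainder and 2 to 6 in untreated cells. The cross-presenting dendritic cell markers *Clec9a* and *Xcr1* had 0 to 2 and 0 to 3 counts per library in the remainder, and 3 to 4 and 1 to 6 with IL-4. *Zbtb46*, a factor of conventional dendritic cells, had 4 to 9 counts in untreated cells, 8 to 14 with IL-4, 4 to 10 in the difference and 13 to 28 in the remainder, and *Cd209a* had 11 to 24, 11 to 15, 0 and 0 to 3. The part of such cells in the *Batf3* values was not tested.

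*Batf* (chr12:85686669-85709087, plus strand), the other BATF member, was at 11.3, 12.8 and 11.3 CPM in untreated cells and at 10.4, 10.7 and 8.66 CPM with IL-4. It was at 18.8, 17.5 and 15.4 CPM in the difference and at 20.4, 15.1 and 15.4 CPM in the remainder. All 6 Wnt3a-treated libraries were above all untreated and IL-4 libraries. *Batf* rose 1.46-fold in the difference (log2 0.55 ± 0.14, adjusted p = 0.011, edgeR) and 1.44-fold in the remainder (log2 0.52 ± 0.14, adjusted p = 0.013, edgeR), while the log2 value with IL-4 was -0.24 ± 0.14 (adjusted p = 0.50, edgeR). Both calls were lost without mouse 1 (adjusted p = 0.059 and 0.15, edgeR) and without mouse 3 (0.076 and 0.086). The call in the difference was also lost without the difference library of mouse 1 (log2 0.48, adjusted p = 0.050, edgeR). That in the remainder was lost without the untreated library of mouse 3 (log2 0.49, adjusted p = 0.052, edgeR) or the remainder library of mouse 1 (log2 0.38, adjusted p = 0.059, edgeR).

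**Figure D2:**
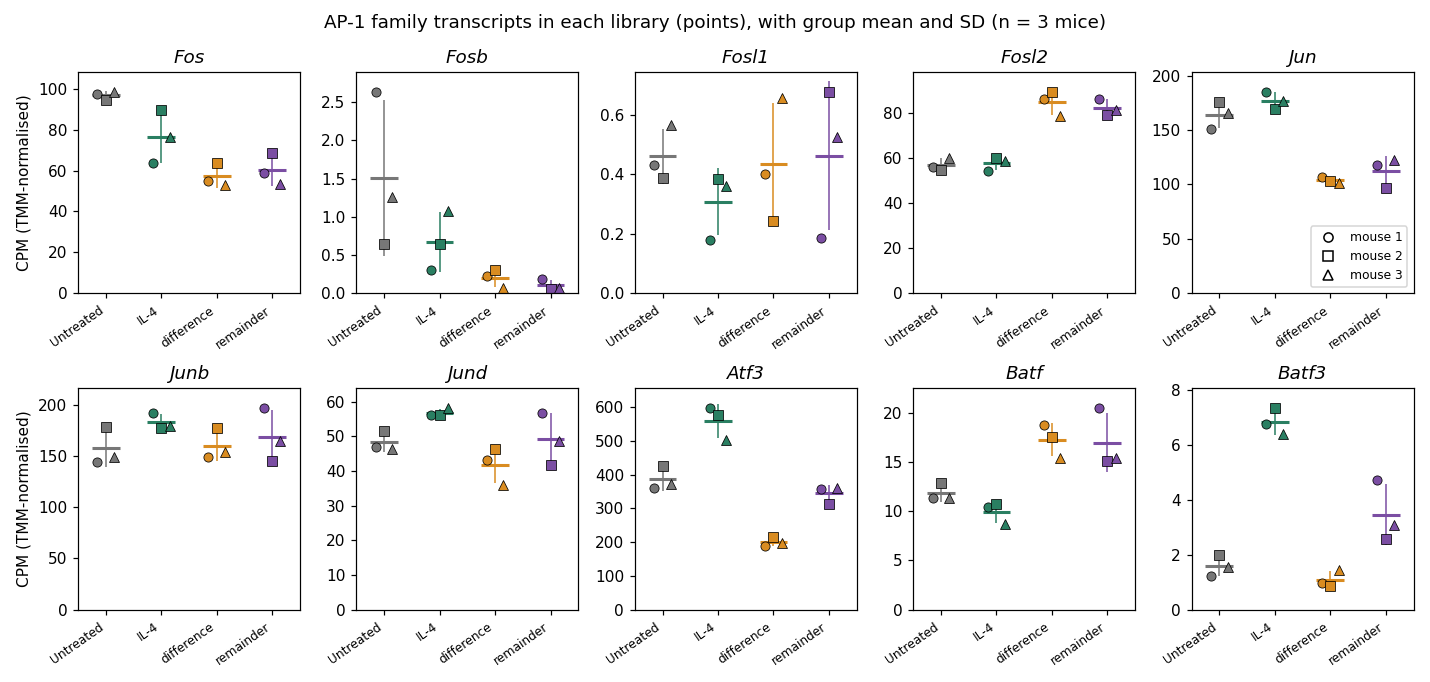
TMM-normalised CPM of each AP-1 member in the 12 libraries, with 1 point per mouse (circle, square and triangle for mice 1, 2 and 3), and the group mean (bar) and SD (line). *Fos* and *Jun* are lower and *Fosl2* and *Batf* higher in both the difference and the remainder than in untreated cells, whereas *Atf3* and *Batf3* differ between the difference and the remainder.

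*Fosb* passed the count filter through the untreated and IL-4 libraries and had under 10 counts in every library of the difference and the remainder, so it was left out of the counts that follow. In the difference, 5 of the 8 other tested members were called against untreated cells, 2 higher and 3 lower, where 23.2% of all tested genes were called (11.8% higher, 11.4% lower). Groups stood apart for 6 of the 8, against 39.2% of all tested genes. In the remainder 5 were called, 3 higher and 2 lower, beside 25.3% of all tested genes (13.6% higher, 11.7% lower), and 5 stood apart, beside 35.6%. Both comparisons share the untreated libraries. With total counts in place of TMM, called genes split into 1131 higher and 2238 lower in the difference (1462 and 1422 with TMM) and 1293 and 2342 in the remainder (1687 and 1450). That scaling moved the median of all genes from -0.01 to -0.10 and from -0.02 to -0.13, and changed no member's call in the difference. In the remainder *Atf3* was then called lower (log2 -0.27, adjusted p = 0.013, edgeR).

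The Fos subfamily split by member. *Fos* (chr12:85473890-85477273, plus strand), whose protein is the classic Jun partner, was at 97.6, 94.6 and 98.4 CPM in untreated cells of mice 1, 2 and 3. It was at 63.6, 89.6 and 76.4 CPM with IL-4, at 55.1, 63.5 and 52.8 CPM in the difference and at 59.0, 68.4 and 53.2 CPM in the remainder. All 9 treated libraries were below the 3 untreated libraries. *Fos* fell by 0.76 ± 0.12 on the log2 scale in the difference (1.69-fold lower, adjusted p = 0.00039, edgeR) and by 0.69 ± 0.12 in the remainder (1.61-fold lower, adjusted p = 0.00075, edgeR). With IL-4 its log2 value was -0.34 ± 0.12 (adjusted p = 0.18, edgeR). The call in the remainder was lost without mouse 3 (log2 -0.59, adjusted p = 0.060, edgeR). With IL-4, *Fos* was called without mouse 2 (log2 -0.50, adjusted p = 0.039, edgeR) and with no count filter (log2 -0.35, adjusted p = 0.0255, edgeR).

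*Fosl2* (chr5:32135801-32157842, plus strand) encodes FRA2, a Fos-related protein without the strong transactivation domain of c-FOS. It was at 56.0, 54.6 and 60.3 CPM in untreated cells, at 54.2, 60.2 and 58.7 CPM with IL-4, at 86.5, 89.4 and 78.8 CPM in the difference and at 86.5, 79.1 and 81.7 CPM in the remainder. The 6 Wnt3a-treated libraries were all above the 6 others, and IL-4 and untreated libraries overlapped. *Fosl2* rose 1.49-fold in the difference (log2 0.58 ± 0.08, adjusted p = 9.3e-05, edgeR) and 1.45-fold in the remainder (log2 0.53 ± 0.08, adjusted p = 0.00015, edgeR). Its log2 value with IL-4 was 0.02 ± 0.08 (adjusted p = 0.95, edgeR).

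*Fosb* (chr7:19302696-19310051, minus strand) encodes a close relative of c-FOS and had few reads, with 49, 10 and 20 counts in untreated cells and 5, 10 and 15 with IL-4. The difference held 4, 5 and 1 counts and the remainder 3, 1 and 1. Since it passed the count filter only through the groups where it was high, its counts are given as a description, with no test. Summed over mice, 79 counts in untreated cells, 49 of them from mouse 1, stood against 10 in the difference and 5 in the remainder. Scaled to library size, the ratios were 7.51 and 15.01. These ratios pool the mice and carry no measure of the spread between them. *Fosl1* (chr19:5447547-5455946, plus strand), which encodes FRA1, had 6 to 9 counts per library in untreated cells, 3 to 6 with IL-4, 4 to 9 in the difference and 3 to 11 in the remainder. *Fosl1* was not tested, since it did not pass the count filter. On these few counts its IL-4 range (0.180 to 0.383 CPM) lay just below the untreated range (0.386 to 0.564 CPM), which the difference and the remainder overlapped. Of its exon bases, 57.21% overlap *Ccdc85b* on the other strand.

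Of the Jun subfamily, *Jun* was the member called against untreated cells. *Jun* (chr4:95049034-95052222, minus strand, a gene of 1 exon) was at 151, 176 and 165 CPM in untreated cells and at 185, 170 and 176 CPM with IL-4. It was at 107, 103 and 102 CPM in the difference and at 118, 97.0 and 123 CPM in the remainder. The 6 Wnt3a-treated libraries were all below the 6 others. *Jun* fell by 0.66 ± 0.09 on the log2 scale in the difference (1.58-fold lower, adjusted p = 0.00011, edgeR) and by 0.54 ± 0.09 in the remainder (1.46-fold lower, adjusted p = 0.00047, edgeR), and its log2 value with IL-4 was 0.11 ± 0.09 (adjusted p = 0.65, edgeR).

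*Junb* (chr8:84974484-84978718, minus strand) was at 145, 179 and 149 CPM in untreated cells, 192, 177 and 180 CPM with IL-4, 150, 177 and 154 CPM in the difference, and 197, 145 and 165 CPM in the remainder. Its ranges overlapped between untreated cells and each other group. The log2 values against untreated were 0.22 ± 0.11 with IL-4, 0.02 ± 0.11 for the difference and 0.10 ± 0.11 for the remainder, and none was called (adjusted p = 0.42, 0.91 and 0.56, edgeR). Without mouse 2 the remainder value became 0.31 and was called (adjusted p = 0.042, edgeR).

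*Jund* (chr8:70698949-70700616, plus strand, a gene of 1 exon) encodes the Jun protein usually present in resting cells. It was at 46.9, 51.5 and 46.3 CPM in untreated cells, 56.0, 56.0 and 58.1 CPM with IL-4, 43.1, 46.2 and 36.0 CPM in the difference, and 56.8, 41.8 and 48.6 CPM in the remainder. The IL-4 libraries stood above and the difference libraries just below the untreated range, which the remainder overlapped. None of these passed the test, with log2 values of 0.23 ± 0.11, -0.21 ± 0.11 and 0.03 ± 0.11 (adjusted p = 0.37, 0.22 and 0.90, edgeR). Another gene, *Gm11175*, overlaps 52.58% of the *Jund* exon on the other strand. For *Junb* the share is 7.52% (*Prdx2*) and for *Jun* 7.28% (*Junos*). Whether reads were counted by strand is not given in the sources used here. No member shared a 50-base stretch with another gene's transcripts (0% in all 10).

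**Figure D3:**
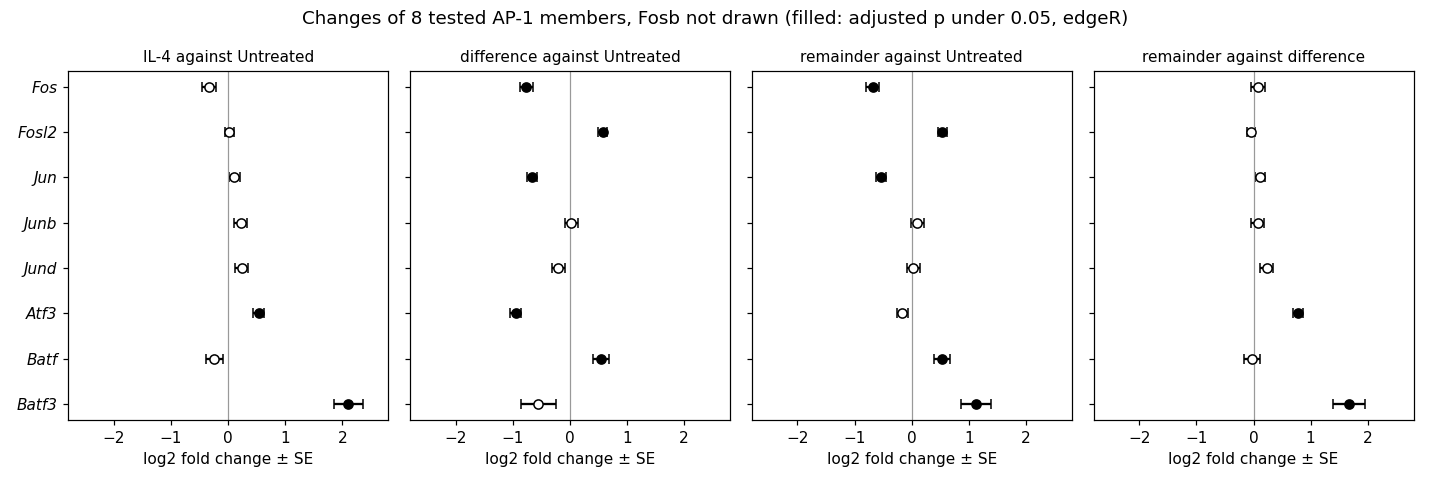
Log2 fold change ± SE of 8 tested members (without *Fosb*) in 4 comparisons, with filled points for adjusted p under 0.05 (edgeR). IL-4 alone raised *Atf3* and *Batf3*, and the same members are the filled points for the remainder against the difference, at 0.78 and 1.68.

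Between the Wnt3a-treated libraries themselves, 2 of the 8 tested members other than *Fosb* were called in the remainder against the difference, both higher, where 5.25% of all tested genes were called (2.87% higher). Groups stood apart for the same number, 2, against 22.4% of all tested genes. *Atf3* was 1.72-fold higher in the remainder (log2 0.78 ± 0.09, adjusted p = 0.0002, edgeR) and *Batf3* 3.19-fold higher (log2 1.68 ± 0.28, adjusted p = 0.0031, edgeR), each in 3 of 3 mice. The *Batf3* call was lost without mouse 3 (log2 1.99, adjusted p = 0.065, edgeR). The log2 values of *Fos*, *Fosl2*, *Jun*, *Junb* and *Batf* lay between -0.04 and 0.12 and that of *Jund* was 0.23 ± 0.11, and none was called. *Fosb* had 10 counts in all difference libraries and 5 in all remainder libraries. *Jund* was called without mouse 2 (log2 0.43, adjusted p = 0.046, edgeR).

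The columns as deposited mix both parts, so they hold less of this contrast. With them, the Wnt3a+IL-4 against the Wnt3a column gave log2 values of 0.13 ± 0.07 for *Atf3* and 0.27 ± 0.21 for *Batf3*, and 0 of the 10 members and 0 of 13368 genes were called. Against untreated, *Batf3* was at log2 0.23 ± 0.24 in the Wnt3a column and 0.50 ± 0.24 in the Wnt3a+IL-4 column (adjusted p = 0.51 and 0.14, edgeR). *Atf3* was lower in both columns, by log2 -0.65 ± 0.07 and -0.52 ± 0.07 (adjusted p = 1.4e-05 and 9.5e-05, edgeR). These columns share reads within a mouse, which the fit took no account of, and the effect on the test was not measured.

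The change between the parts was set against the change with IL-4 alone, in a contrast added after the values were seen. With the remainder taken as Wnt3a+IL-4, 0 of the 9 tested members differed beside 0.105% of all tested genes (0.0403% higher, 0.0644% lower; edgeR, with 1 member, *Fos*, at an unadjusted p under 0.05, and 0 members by DESeq2). The log2 differences of these changes were then 0.25 ± 0.13 for *Atf3* and -0.43 ± 0.39 for *Batf3*. With the difference taken as Wnt3a+IL-4, *Atf3* (-1.31 ± 0.13, adjusted p = 2.1e-05, edgeR) and *Batf3* (-3.78 ± 0.38, adjusted p = 2e-05, edgeR) were called, beside 7.33% of all tested genes (2.91% higher, 4.42% lower). Under this last reading the contrast adds, with reversed sign, the changes with IL-4 and between the parts that were called above. These calls are therefore not separate evidence. No value was used to choose between these readings.

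Against IL-4 libraries, 7 members were called in the difference (2 higher, 5 lower, beside 20.3% of all tested genes, 10% higher and 10.3% lower) and, *Fosb* again left out, 5 in the remainder (2 higher, 3 lower, beside 20.3%, 10.6% higher and 9.67% lower). Libraries stood apart for 8 and 5 of 8 members, against 38.6% and 35.9% of all tested genes. Both comparisons share the IL-4 libraries. *Batf3* was 6.31-fold lower in the difference and 1.98-fold lower in the remainder than with IL-4 (log2 -2.66 ± 0.27 and -0.98 ± 0.24, adjusted p = 6.2e-06 and 0.0083, edgeR). *Atf3* was 2.78-fold and 1.62-fold lower (log2 -1.48 ± 0.10 and -0.70 ± 0.09, adjusted p = 8.3e-08 and 9.8e-05, edgeR). *Batf* and *Fosl2* were higher in both, by log2 0.79 ± 0.14 and 0.56 ± 0.08 in the difference and 0.77 ± 0.14 and 0.51 ± 0.08 in the remainder, and *Jun* was lower in both (log2 -0.77 ± 0.09 and -0.65 ± 0.09).

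Some of these calls against IL-4 rested on single libraries. *Fos* and *Jund* were called lower in the difference alone (log2 -0.42 ± 0.12 and -0.44 ± 0.11, adjusted p = 0.023 and 0.013, edgeR). Without mouse 3 these became -0.35 and -0.31 (adjusted p = 0.29 and 0.31, edgeR). The *Fos* call was also lost without mouse 2, without the IL-4 library of mouse 2 (adjusted p = 0.15, edgeR) or mouse 3 (0.075), and without the difference library of mouse 1 (0.081) or mouse 3 (0.095). The *Jund* call was lost without the IL-4 library of mouse 3 (adjusted p = 0.062, edgeR) or its difference library (0.066). *Fosb* had 30 counts in all IL-4 libraries and 5 in all remainder libraries. *Fos* in the remainder (log2 -0.35, adjusted p = 0.06, edgeR) was called with the mouse as replicate block (0.040), without mouse 1, and without the IL-4 library of mouse 1 or the remainder library of mouse 2. It was also called by DESeq2 (adjusted p = 0.0498), and by edgeR with total counts (0.0478) or no count filter (0.0171). With the deposited Wnt3a+IL-4 column in place of the remainder, *Fos* was called against IL-4 (adjusted p = 0.0287, edgeR). So was *Jund* (log2 -0.33, adjusted p = 0.0060, edgeR), which was not called in the remainder itself. *Batf3* in the remainder was not called without mouse 2 (log2 -0.73, adjusted p = 0.076, edgeR) or mouse 3 (log2 -0.93, adjusted p = 0.14, edgeR).

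Genes that act with AP-1 were taken as lists by role, and the medians below are of log2 fold changes against untreated, beside -0.01 in the difference and -0.02 in the remainder over all tested genes. Of 11 other bZIP genes, whose proteins can pair with AP-1 members or share their sites, 5 were higher in the difference and 6 in the remainder, beside 11.8% and 13.6% of all tested genes, with 0 lower (medians 0.41 and 0.43) and 0 called with IL-4 (edgeR, with 0 at an unadjusted p under 0.05 and 0 by DESeq2). *Atf5* and *Ddit3*, both tied to the integrated stress response, were at log2 0.68 ± 0.15 and 0.63 ± 0.12 in the difference and 1.01 ± 0.15 and 1.00 ± 0.12 in the remainder. *Crem*, a cyclic AMP-responsive repressor or activator by isoform, was at 0.84 ± 0.25 and 0.83 ± 0.25. *Atf4*, which drives the integrated stress response, was at 0.43 ± 0.10 in the remainder, where it was called (adjusted p = 0.0072, edgeR), and at 0.22 ± 0.10 in the difference, where it was not (adjusted p = 0.14, edgeR).

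The interferon regulatory factors that bind DNA with BATF proteins differed from each other. *Irf4* averaged 4.48 CPM in untreated cells, 18.2 CPM with IL-4, 2.29 CPM in the difference and 6.80 CPM in the remainder. It rose with IL-4 (log2 2.03 ± 0.20, adjusted p = 4e-05, edgeR), fell by 0.97 ± 0.23 in the difference (adjusted p = 0.0076, edgeR), and was higher in the remainder than in untreated cells (log2 0.60 ± 0.21, adjusted p = 0.048, edgeR) and than in the difference (log2 1.58 ± 0.23, adjusted p = 0.00085, edgeR). The order of its group means was that of *Batf3*. *Irf8* averaged 336 CPM in untreated cells and was not called by edgeR in any of these comparisons, with log2 -0.24 ± 0.09 in the difference (adjusted p = 0.057, edgeR), where DESeq2 called it.

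Upstream of AP-1, 19 of 21 listed MAP kinase cascade genes were tested. In the remainder against untreated, 1 was lower (*Map3k5*) and 0 higher, beside 11.7% and 13.6% of all tested genes. The median log2 change was -0.15. *Map3k5*, which encodes the stress kinase ASK1, averaged 36.3 CPM in untreated cells and 17.7 CPM in the remainder (log2 -1.04 ± 0.12, adjusted p = 1.4e-05, edgeR), and it was at log2 -0.30 ± 0.11 in the difference (adjusted p = 0.071, edgeR). Of 10 nuclear kinases and factors that act on the *Fos* promoter, 1 was higher and 1 lower in the difference, and 1 higher and 3 lower in the remainder (medians -0.03 and -0.19), beside 23.2% and 25.3% of all tested genes called. *Elk3*, a ternary complex factor, was higher in the remainder (log2 0.24 ± 0.06), while *Srf*, its DNA-binding partner (-0.32 ± 0.09), *Mef2a* (-0.87 ± 0.17) and the kinase *Rps6ka5* (-0.82 ± 0.16) were lower. Of 7 genes for turnover of Jun proteins, 0 were called against untreated in any group by edgeR or by DESeq2, with 0, 1 and 2 at an unadjusted p under 0.05 with IL-4, for the difference and for the remainder.

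Of 16 other immediate early genes, induced by many of the signals that induce *Fos*, *Egr3* passed the count filter through the untreated libraries (20 to 23 counts, against 5 to 8 with IL-4, 2 to 6 in the difference and 2 to 7 in the remainder) and is left out of the counts. Of the other 15, 4 were higher and 3 lower with IL-4, beside 2.31% and 1.09% of all tested genes. In the difference 2 were higher and 11 lower, beside 11.8% and 11.4%, and in the remainder 3 were higher and 10 lower, beside 13.6% and 11.7%. *Nr4a1*, an orphan nuclear receptor, was at log2 -2.57 ± 0.26 for the difference and -2.49 ± 0.26 for the remainder. *Ier3*, a regulator of cell survival, was higher in both, at 0.88 ± 0.10 and 1.38 ± 0.10. *Egr2*, a factor for myeloid differentiation, was higher in the remainder than in the difference, as *Atf3* was (log2 2.54 ± 0.13, adjusted p = 9.1e-08, edgeR). Against untreated its log2 values were 2.38 ± 0.12 with IL-4, -0.87 ± 0.14 for the difference and 1.66 ± 0.12 for the remainder, all called.

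Textbook AP-1 target genes did not share a direction. Of 19 listed, 17 were tested, and *Nos2*, which passed the count filter through the Wnt3a-treated libraries, is left out of the counts. Of the other 16, 6 were higher and 4 lower in the difference, beside 11.8% and 11.4% of all tested genes, and 8 were higher and 3 lower in the remainder, beside 13.6% and 11.7%. With IL-4 alone, 4 were higher and 1 lower, beside 2.31% and 1.09%. *Ptgs2*, the inducible cyclooxygenase, was at log2 2.85 ± 0.36 in the difference and 3.26 ± 0.35 in the remainder. *Nos2*, the inducible nitric oxide synthase, had 0 to 1 counts per library in untreated cells, 28 to 157 in the difference and 60 to 161 in the remainder. *Tnf* was lower in both, at -1.46 ± 0.15 and -1.74 ± 0.15, and so was *Ccnd1*, the gene of cyclin D1, at -3.27 ± 0.21 and -1.71 ± 0.19. Cyclin D1 transcript was higher in the remainder than in the difference (log2 1.56 ± 0.22, adjusted p = 0.00076, edgeR), and with IL-4 alone it was at log2 0.95 ± 0.17 against untreated (adjusted p = 0.0051, edgeR).

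**Figure D4:**
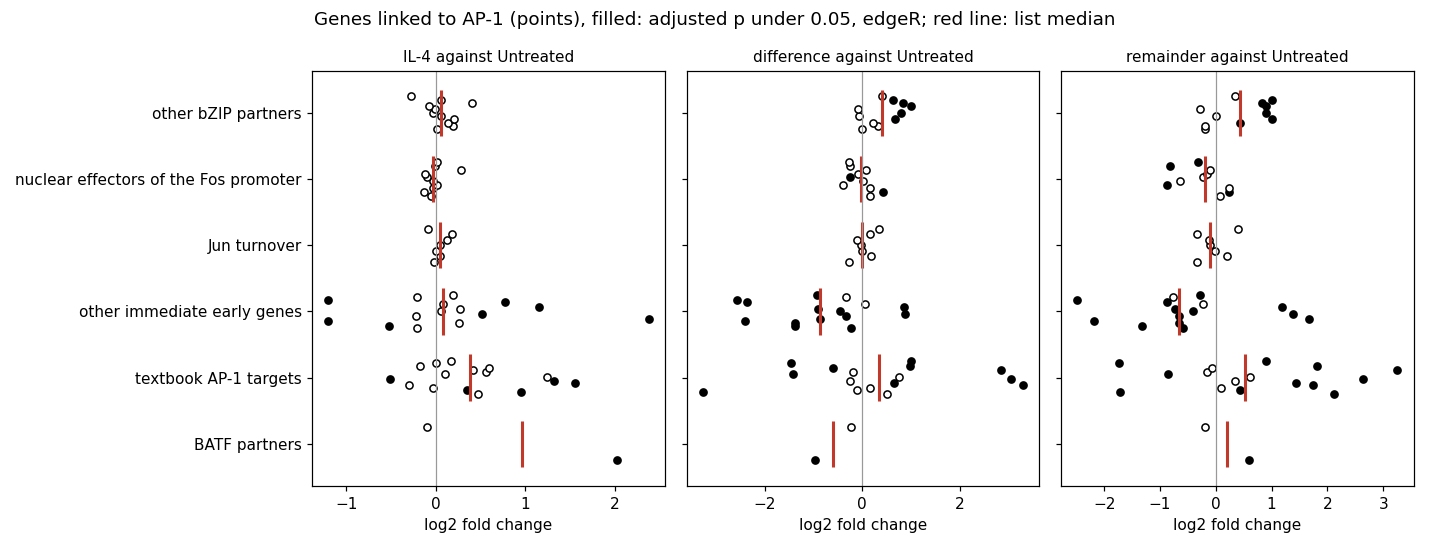
Log2 fold changes against untreated of the tested genes in 6 lists linked to AP-1 (without *Egr3* and *Nos2*), with filled points for adjusted p under 0.05 (edgeR) and a red line at each list's median. Of the other immediate early genes, 11 of 15 are called lower in the difference and 10 of 15 in the remainder, whereas the turnover list has 0 filled points.

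*Batf3* and *Atf3* had the widest spans of group means among tested members at 1 CPM or more (log2 2.54 and 1.47). Over the 12 libraries and 8504 genes searched, the log2 CPM of *Batf3* was most like that of *Sdc4* and *Nab2* (Pearson's r = 0.96 for both), then *Crip1* (0.96). That of *Atf3* was most like *Atp6v0a1* (0.98), *Dennd4b* (0.97) and *Myc* (0.97). These values describe the libraries, which share 4 groups and 3 mice.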

How the data were processed

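Per the labels, marrow from 3 mice gave BMDMs under 4 conditions, and single reads were sequenced. The authors' methods and the submitters' processing notes name FastQC 0.11.7, Trimmomatic 0.36, STAR 2.6.0 with mm10, SAMtools 1.9, HTSeq 0.11.1 and DESeq2 1.24.0. What the authors deposited is 1 raw count per gene and sample, without normalization. Of 48526 Ensembl identifiers, 48058 (99.0%) had a symbol.

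Members, lists and tests were chosen with earlier results of these data known. Difference and remainder were solved per mouse, with 0 negative values. The 12421 genes that reached 10 counts in 3 or more libraries went into edgeR 4.0.16 (R 4.3.3, quasi-likelihood, TMM, 12 libraries in 1 fit, no mouse term, Benjamini-Hochberg threshold 0.05). CPM used TMM library sizes, and SE are on the log2 scale. Genes with under 10 counts in every library of the lower group compared were left out of the counts of called members and list genes, a choice made after the values were seen. A value of 3 counts or fewer was taken as the floor. All members were named. Per list, the 2 highest and 2 lowest called genes in the remainder against untreated were named, with *Irf8* and dendritic cell markers added after their values were seen. Calls of the MAP kinase cascade genes with IL-4 and in the difference are not reported here. Likeness used log2 CPM (prior count 2) of genes averaging 8 CPM or more.

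On simulated counts for the remainder against untreated (12268 genes), 84 of 100 2-fold and 99 of 100 4-fold changes were recovered with 11 false calls among 194. A simulated IL-4 comparison without changes gave 0 calls. The changed genes were drawn from those at 1 CPM or more, and the libraries were drawn without a mouse effect. Recovery of changes under 2-fold was not tested.

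By the labels every group holds 1 sample from each mouse, which pairs the samples. Deviations of same-mouse libraries from their group means correlated between -0.42 and 0.45 in 18 pairs, 6 of them over 0.1.

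Alternatives were DESeq2 1.42.0, its size factors or total counts, no filter, a filter of 1 CPM in 3 libraries, a fit of only the groups compared, thinned counts, a replicate block by mouse, and leaving out each mouse or library. The deposited columns in place of the parts, a threshold of 0.01 and a minimum log2 change of 1 were also tried. Gene models were GENCODE M21 (mm10), and promoters RefSeq GRCm38.p6.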

Additional observations from a re-analysis of the deposited data

Results flagged for a closer look

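A pair of members was called in an interaction contrast in edgeR, added after the data were seen. They were called only with the difference taken as the Wnt3a+IL-4 culture. Both had already been called higher with IL-4, and higher in the remainder than in the difference. Under this reading the contrast adds those changes with reversed sign, so the calls are not separate evidence. For *Atf3* the log2 change from remainder to difference was lower than that from untreated to IL-4 by -1.31 (SE 0.13, adjusted p = 2.1e-05). For *Batf3* this value was -3.78 (SE 0.38, adjusted p = 2e-05). With the remainder taken as the Wnt3a+IL-4 culture, the values were 0.25 and -0.43 (adjusted p = 0.46 and 0.71, edgeR), and neither was called.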

How the results depend on the processing

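Counts of members called ranged over single mice or libraries left out from 1 to 3 with IL-4 (2 with all libraries), from 4 to 6 in the difference (6), from 3 to 7 in the remainder (6) and from 1 to 3 in the remainder against the difference (2), and against IL-4 from 5 to 7 in the difference (7) and 4 to 7 in the remainder (6). These counts include *Fosb*, without which they were 5, 5 and, for the remainder against IL-4, 5 with all libraries. Leaving out a mouse leaves 2 libraries per group. Over all genes, calls ran over left-out libraries and over the other alternatives from 77 to 532 and from 133 to 812 with IL-4 (422), from 1220 to 3188 and 842 to 4063 for the difference (2884), from 1375 to 3807 and 917 to 3915 for the remainder (3137), and from 97 to 1188 and 0 to 1454 between the parts (652). Against IL-4 they ran from 1208 to 2805 and 835 to 3320 for the difference (2519) and from 1043 to 3052 and 733 to 3211 for the remainder (2521). For the interaction they ran from 0 to 43 and 0 to 575 with the remainder as Wnt3a+IL-4 (13), and from 265 to 1459 and 311 to 1505 with the difference so taken (910). For the interaction contrast, 2 to 4 members were called with the difference as Wnt3a+IL-4 (2) and 0 with the remainder so taken (0, or 1 with the deposited columns, *Batf3* at -1.83).

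As an alternative, a log2 change of 1 or more, up or down, was also required. Then 1 member was called with IL-4, 1 in the difference, 2 in the remainder and 1 between the parts. Over all 12421 tested genes, 133, 842, 917 and 184 were called. Against IL-4, 2 members were called for the difference and 1 for the remainder, beside 835 and 733 of all tested genes. *Fosb*, given above with no test, was the only member in the difference and in the remainder against IL-4, so no other member passed there. In the remainder it was 1 of the 2, and the other was *Batf3*. The deposited columns gave 0 between Wnt3a+IL-4 and Wnt3a. With the mouse as replicate block the number of members called was 2, 6, 6 and 2 in the first 4 comparisons and 7 and 6 against IL-4, and only *Fosb* and *Fos* in the remainder against IL-4 changed their call. The 6 in the difference and the 6 in the remainder against untreated include *Fosb*. Over all 12421 tested genes, 391, 2659, 2858 and 556 were called in the first 4 comparisons, and 2343 and 2316 against IL-4.

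Of the log2 values that the report prints, those that turned sign were all uncalled. With total counts, *Fosl2* with IL-4 was -0.034 (-0.0011 with thinned counts), *Junb* was -0.064 for the difference and -0.0067 for the remainder, and *Jund* was -0.083 for the remainder. With the deposited columns in place of the parts, *Jund* was -0.10 in the Wnt3a+IL-4 column and *Batf3* 0.23 in the Wnt3a column, each against untreated. The *Atf3* interaction was then -0.40, with the Wnt3a+IL-4 column in place of the remainder. Over left-out libraries, *Fosl2* with IL-4 ran from -0.053 to 0.062, *Junb* from -0.056 to 0.12 in the difference and -0.081 to 0.31 in the remainder, and *Jund* from -0.11 to 0.19 in the remainder. Between the parts, *Fos* ran from -0.017 to 0.16, *Fosl2* from -0.094 to 0.037, *Junb* from -0.094 to 0.27 and *Batf* from -0.18 to 0.078. Uncalled interaction values not printed also turned sign, for *Fosb*, *Jun* and *Jund* with the remainder as Wnt3a+IL-4 and for *Fosl2* under both readings. The cause was not tested.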
